A study of Mus musculus with 10 samples.

Results

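Genes for ribosome biogenesis and the nucleolus were followed by RNA sequencing in MAF9 cells, a mouse leukemia model, under 4 chromatin inhibitors. The set holds 41 of the 24015 genes in the count table and was picked by symbol: genes that make, modify and process ribosomal RNA and assemble the subunits of the ribosome. All 41 genes were found in the table, and all 41 passed the filter on low counts that kept 12971 genes for testing. Between 217 and 67243 reads were counted on a member in a library.

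Ribosomes are built in the nucleolus, where RNA polymerase I transcribes a long ribosomal precursor RNA. Small nucleolar ribonucleoproteins (snoRNPs) guide its methylation and pseudouridylation, the small subunit processome folds and cuts it, and separate assembly factors mature the large subunit. Genes of this pathway are classical targets of the transcription factor MYC, and their output is known to be high in growing blood progenitors and leukemia cells and low in mature granulocytes.

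MAF9 cells are bone marrow cells of C57BL/6 mice transduced with the fusion gene MLL-AF9, so every group, the control included, carries it, and the labels do not say which animals or transductions the libraries come from. The medium was IMDM with interleukin-3 at 10 ng/ml and fetal bovine serum at 15%. For 4 days they received MM-401, which blocks the contact of WDR5 with MLL1, EPZ5676, an inhibitor of the methyltransferase DOT1L, MI-2-2, which blocks MENIN, iBET, an inhibitor of BET bromodomain proteins, or DMSO as mock treatment. Each inhibitor was given at its IC50 dose, and the study asked whether blocking MLL1 and blocking the fusion protein's partners act alike on transcription. Each of the 5 conditions had 2 libraries, labelled biological duplicates, with 20394762 to 29473127 counted reads. Levels are given as reads per 1000000 counted reads (CPM) scaled with the trimmed mean of M-values (TMM-normalized CPM), and differences as log2 fold changes with the standard error (SE) from edgeR.

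Cell identity was checked with marker lists. The blood cell gene Ptprc had at least 9049 reads in every library and the myeloid factor Spi1 at least 4748, while the erythroid genes Hba-a1 and Hbb-b1 and the lymphoid genes Pax5 and Cd3e had none. The stem cell markers Cd34, at 2 to 56 reads, and Flt3, at 0 to 84, were near 0. DMSO replicate 2 stood apart from the other 9 libraries. It held 3630 reads of 4 Y-linked genes, against 0 to 2 elsewhere, and 4.76 CPM of Xist against 928 to 3051 CPM. These reads are of a male pattern in this library and of a female pattern in the other 9 libraries. Sums of 12 marker genes each also differed between DMSO replicates 1 and 2. They were 4018 and 715 CPM for maturing neutrophils, 107 and 88.8 for macrophages, 11919 and 15252 for myeloid progenitors and leukemia cells, and 5116 and 6163 for proliferation. How the differences between the DMSO libraries are linked was not tested. The DMSO libraries also differed in the ribosome biogenesis genes: 40 of the 41 members were higher in replicate 2 (over all genes tested, 49.1%), by a median log2 of 0.77, and 13 members (31.7%) were over 2-fold apart, as were 19.1% of all genes. For this reason the medians of the members against DMSO, and in part their counts, are given below also against each control library alone. Single members, Myc and the marker lists are mostly compared with both controls together.

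MYC binds DNA at the E-box CACGTG, and windows of 300 bases around the gene starts (250 before, 50 after, from RefSeq, build GRCm38.p6) were searched for it. Windows were matched for 36 members, and 8 of them (22.2%) held CACGTG, which reads the same on both strands, against 8.09% of 27025 genes. The related hexamer CACGCG, searched on both strands, was in the windows of 12 of the 36 members (33.3%) and of 10.5% of all genes. The 27025 genes are all those with a window and were not limited to the genes tested here. A match in a window is not evidence of binding. The 8 members with CACGTG were Imp4, Ltv1, Mybbp1a, Nop2, Pes1, Tsr1, Utp20 and Wdr43. In 5 of these the motif lay between 130 bases before and 30 bases after the start. These stretches are printed 5′ to 3′ on the plus strand, on which all 5 genes lie, with the motif in capitals.
Imp4 (chr1:34439699-34439858): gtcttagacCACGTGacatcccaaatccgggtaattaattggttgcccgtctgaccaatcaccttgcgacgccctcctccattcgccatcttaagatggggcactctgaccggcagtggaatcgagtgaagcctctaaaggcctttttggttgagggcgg
Nop2 (chr6:125131753-125131912): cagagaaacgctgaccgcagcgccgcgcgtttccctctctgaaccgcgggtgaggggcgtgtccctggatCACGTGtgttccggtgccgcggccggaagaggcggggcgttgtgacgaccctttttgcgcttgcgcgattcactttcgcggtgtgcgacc
Pes1 (chr11:3963845-3964004): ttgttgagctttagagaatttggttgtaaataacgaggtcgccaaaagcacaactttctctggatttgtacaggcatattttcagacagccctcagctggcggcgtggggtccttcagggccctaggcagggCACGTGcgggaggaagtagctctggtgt
Tsr1 (chr11:74897950-74898109): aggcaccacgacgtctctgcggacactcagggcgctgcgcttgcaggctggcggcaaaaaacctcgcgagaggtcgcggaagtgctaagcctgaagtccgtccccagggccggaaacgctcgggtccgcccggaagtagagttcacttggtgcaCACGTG
Wdr43 (chr17:71616085-71616244): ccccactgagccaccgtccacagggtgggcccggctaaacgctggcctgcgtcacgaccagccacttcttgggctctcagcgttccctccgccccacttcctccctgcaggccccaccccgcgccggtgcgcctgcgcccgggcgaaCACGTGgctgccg
The median log2 fold change with EPZ5676 was -1.07 for the 8 members with CACGTG and -1.15 for the other 28 matched members. With MI-2-2 the medians were -1.26 and -1.33. These medians are a description, and the difference between them was not tested.

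Together the members took up a smaller part of the transcriptome under EPZ5676 and MI-2-2 than under the other treatments. They made up 0.625% and 1.19% of the counted reads in the 2 DMSO libraries, 0.859% and 0.911% under MM-401, 0.594% and 0.684% under iBET, 0.330% and 0.361% under EPZ5676, and 0.288% and 0.318% under MI-2-2. All 4 libraries of EPZ5676 and MI-2-2 were thus below the other 6 libraries. The sum leans on Ncl, which supplied between 18.5% and 27.8% of its TMM-normalized CPM. The median member stood at 44.9% of its mean DMSO level with EPZ5676, 40.9% with MI-2-2, 77.1% with iBET and 103% with MM-401.

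**Figure D1:**
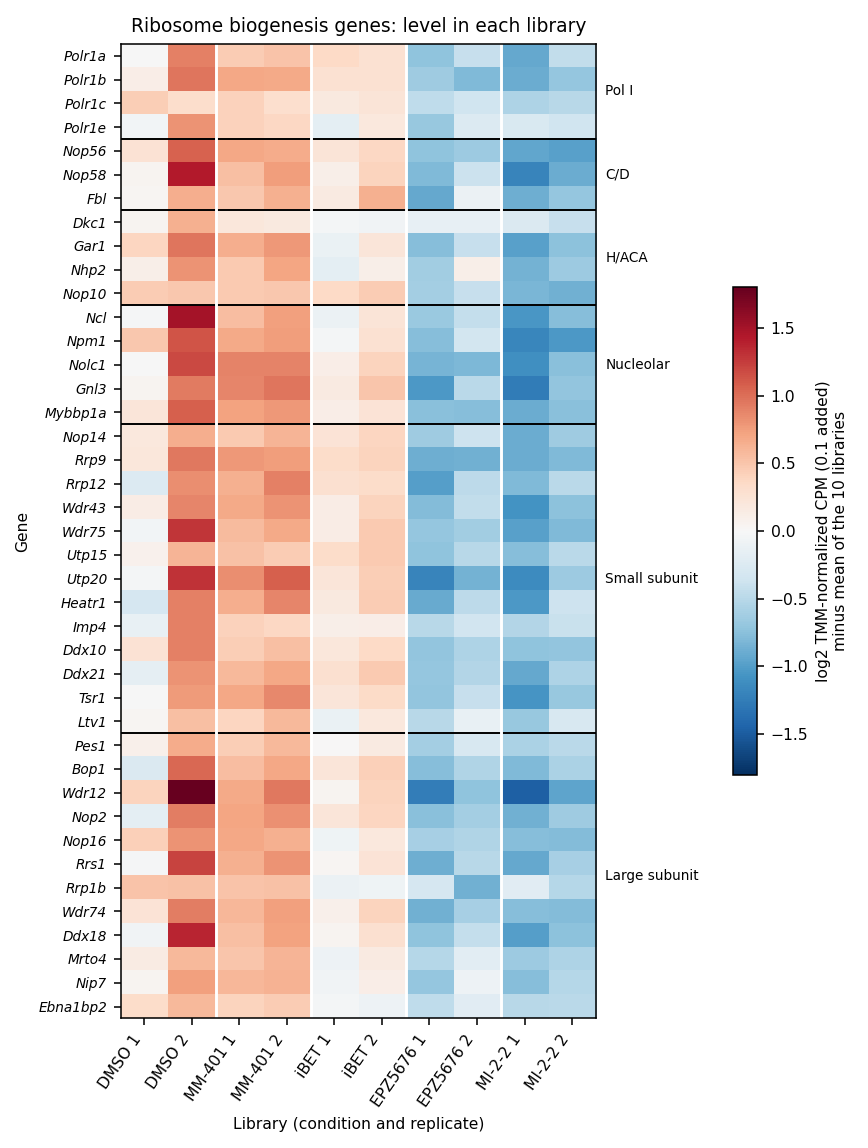
Level of each of the 41 genes (rows, in 6 roles) in each of the 10 libraries (columns), as log2 of TMM-normalized CPM with 0.1 added, minus the gene's mean over the libraries; red is above and blue below that mean. The EPZ5676 and MI-2-2 columns are blue in almost every row, and DMSO replicate 2 is redder than DMSO replicate 1 in 40 of 41 rows.

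Levels between genes can be compared only per length. As TMM-normalized CPM per kilobase of exon (union of exons, GENCODE M21), 3 members led in DMSO, with Ncl at a mean of 213, Npm1 at 182 and Nhp2 at 157. On these lengths their order rests on DMSO replicate 2. In DMSO replicate 1 Npm1 was at 142, Nhp2 at 120.3 and Ncl at 110, the level of Ncl in replicate 2 being 316. The lengths join the exons of all transcripts of a gene, 10188 bases for Ncl, 2665 for Npm1 and 1146 for Nhp2. The annotation used for counting is not given, so all levels per kilobase here, and their order, depend on the lengths chosen. Dkc1 and Mybbp1a stood at 101 and 104. The lowest levels per kilobase were those of Fbl, 6.17, and Polr1e, 6.55. Npm1 has many processed pseudogenes in the mouse genome, and how reads that match several genes were counted is not given, so its level is uncertain.

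EPZ5676 and MI-2-2, which act on DOT1L and MENIN, were both followed by lower levels of most of the set. With EPZ5676 36 of the 41 members fell and 0 rose (edgeR quasi-likelihood test, adjusted p below 0.05), where 19.4% of all 12971 genes tested fell and 18.7% rose. With MI-2-2 39 of 41 fell and 0 rose, where 21.2% of all genes fell and 20.2% rose. The median log2 fold change over the members was -1.16 with EPZ5676 and -1.29 with MI-2-2, against -0.06 and -0.05 over all genes. For all 41 members both libraries of either inhibitor lay below both DMSO libraries, a separation that held for 33% of all genes with EPZ5676 and 34.9% under MI-2-2. The largest falls in both comparisons were those of Wdr12, a member chosen here after its values were seen. The comparisons share their DMSO libraries.

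**Figure D2:**
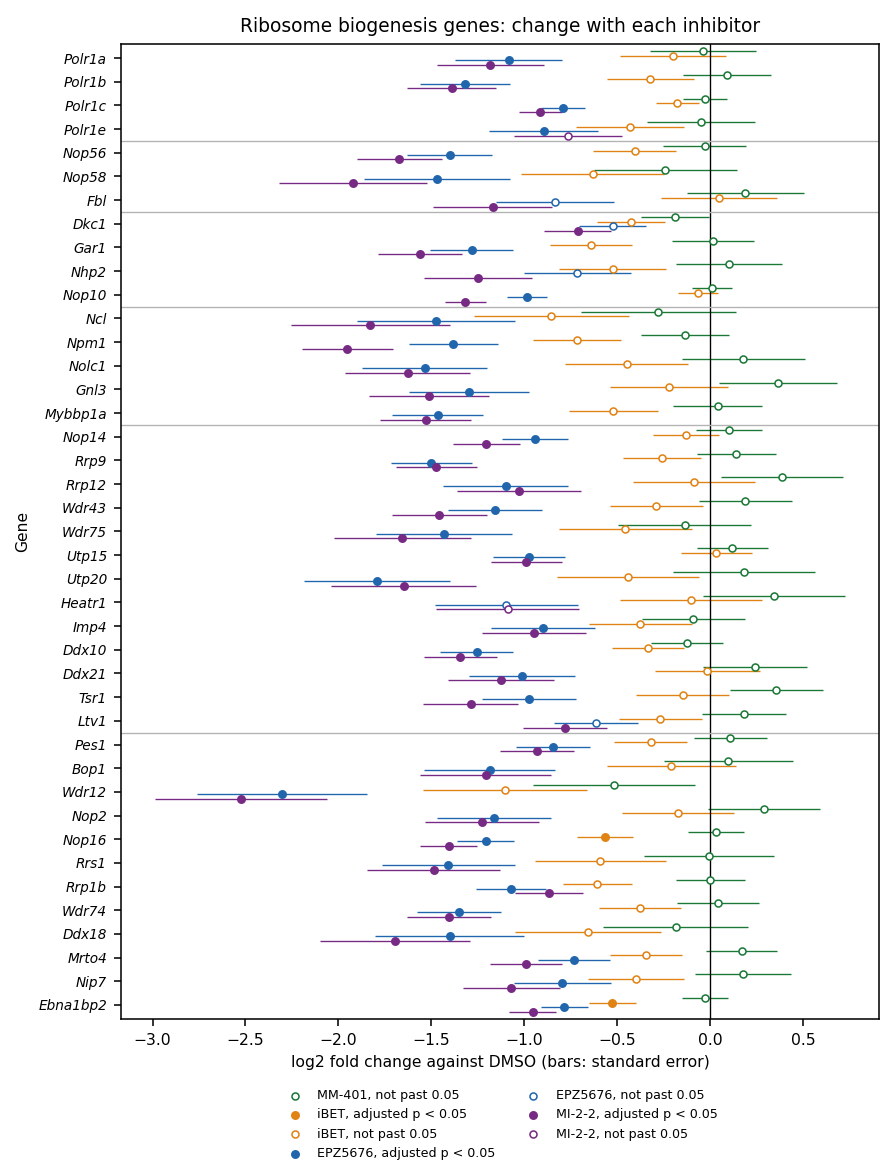
Log2 fold change against DMSO (x axis, bars are 1 standard error) of each member (y axis) with each inhibitor; filled points passed an adjusted p of 0.05 in edgeR. Points of EPZ5676 and MI-2-2 lie between -2.52 and -0.52, those of iBET between -1.10 and 0.05, and those of MM-401 between -0.52 and 0.39.

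In RNA from a whole culture, fewer cells of a type and less RNA per cell cannot be told apart, and cell type markers moved with these falls. The summed level of 12 genes of maturing neutrophils was 715 to 4018 CPM in DMSO, 51860 to 66846 CPM with EPZ5676 and 47111 to 47680 CPM with MI-2-2, and all 12 genes rose with both. Of 12 macrophage genes 11 rose with both, and their sum went from 88.8 to 107 CPM in DMSO to 432 to 818 CPM over the EPZ5676 and MI-2-2 libraries. Of 12 genes of myeloid progenitors and leukemia cells 7 fell and 2 rose with each inhibitor, and the sum was 11919 to 15252 CPM in DMSO and 3566 to 4521 CPM with the inhibitors. Of 12 proliferation genes 6 fell and 1 rose with EPZ5676 and 7 fell with MI-2-2. The part of these markers in the ribosome biogenesis result was not tested.

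RNA polymerase I subunits were the first role examined. All 4 fell with EPZ5676, by a median log2 of -0.99, and 3 of 4 fell with MI-2-2. Polr1a, the largest catalytic subunit, was at 100.2 and 189.9 CPM (TMM-normalized, as all levels below) in DMSO and at 139 and 144 under MM-401. It was at 129.9 and 122 under iBET, 61.0 and 75.8 under EPZ5676, and 53.5 and 74.3 under MI-2-2. Only the latter 2 groups were below both controls. Its log2 fold change was -1.08 (SE 0.29, edgeR adjusted p = 0.021) with EPZ5676 and -1.18 (SE 0.29, edgeR adjusted p = 0.0138) with MI-2-2. Polr1c, a subunit shared with RNA polymerase III, had even controls of 51.9 and 47.5 CPM. Its levels were 50.7 and 46.8 CPM under MM-401, and 43.0 and 45.0 under iBET. They were 27.8 and 29.7 under EPZ5676, and 25.9 and 26.9 under MI-2-2. The fall of Polr1c was 0.79 (SE 0.12, edgeR adjusted p = 0.00221) on the log2 scale with EPZ5676, and with MI-2-2 the log2 fold change was -0.91 (SE 0.12, edgeR adjusted p = 0.00123). Polr1b, the second-largest subunit, fell with both, with log2 fold changes of -1.32 and -1.39. Polr1e had a log2 fold change of -0.90 with EPZ5676, which passed, and of -0.76 (SE 0.29, edgeR adjusted p = 0.068) with MI-2-2, which did not.

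The box C/D snoRNP, which carries out methylation of ribosomal RNA, had a median log2 fold change of -1.40 with EPZ5676, where 2 of its 3 proteins fell, and of -1.67 with MI-2-2, where all 3 fell. Nop58 and Nop56 form its scaffold. Nop56 was at 184 and 321 CPM in DMSO, 249 and 246 under MM-401, 181 and 200.1 under iBET, 93.5 and 97.4 under EPZ5676, and 80.6 and 77.7 under MI-2-2. Its replicates were close in every group but DMSO. The log2 fold changes of Nop56 were -1.40 (SE 0.23, edgeR adjusted p = 0.00305) and -1.67 (SE 0.23, edgeR adjusted p = 0.00156) with EPZ5676 and MI-2-2. Nop58 was at 212 and 551 CPM in DMSO, 300.4 and 345 under MM-401, and 220.4 and 272 under iBET. In the lower groups Nop58 was at 119 and 157 CPM under EPZ5676 and at 90.2 and 111 under MI-2-2. The fall passed with both, with log2 fold changes of -1.47 (SE 0.39) and -1.92 (SE 0.40). Fbl, the methyltransferase itself, fell with MI-2-2 (log2 fold change -1.17), and with EPZ5676 had a log2 fold change of -0.84 (SE 0.32, edgeR adjusted p = 0.0703).

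The box H/ACA snoRNP, which converts uridine to pseudouridine and is also part of telomerase, held both the smallest differences and the smallest adjusted p-values of the set with EPZ5676 and MI-2-2. Dkc1, its pseudouridine synthase, was at 333 and 499 CPM in DMSO, 369 and 362 under MM-401, 314 and 306 under iBET, 290.5 and 288 under EPZ5676, and 268 and 239.7 under MI-2-2. The log2 fold changes of Dkc1 were -0.52 (SE 0.18, edgeR adjusted p = 0.0523) with EPZ5676 and -0.71 (SE 0.18, edgeR adjusted p = 0.0162) with MI-2-2, the smallest of the 41 in both comparisons. Nop10, a small core protein of the same particle, was at 83.7 and 85.2 CPM in DMSO and at 84.9 and 85.5 under MM-401. With iBET it was at 77.8 and 84.0 CPM, with EPZ5676 at 39.8 and 45.5, and with MI-2-2 at 34.4 and 33.5. The fall of Nop10 was thus seen against controls that barely differed, and its log2 fold changes were -0.99 (SE 0.11, edgeR adjusted p = 0.000824) and -1.32 (SE 0.11, edgeR adjusted p = 0.000409). Gar1 fell with both inhibitors. Nhp2 fell with MI-2-2, with a log2 fold change of -1.25, and had one of -0.71 (SE 0.29, edgeR adjusted p = 0.0835) with EPZ5676.

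All 5 nucleolar proteins and regulators fell with both inhibitors, with median log2 fold changes of -1.47 and -1.63. Ncl encodes nucleolin, which binds the nascent precursor RNA, and had the highest CPM of the set. It was at 1119 and 3224 CPM in DMSO, 1677 and 1906 under MM-401, 1061 and 1343 under iBET, 715 and 850.3 under EPZ5676, and 553 and 669.8 under MI-2-2. The 2 controls of Ncl differed by a log2 of 1.53, the widest gap of any member. Its log2 fold changes were -1.47 (SE 0.42, edgeR adjusted p = 0.028) with EPZ5676 and -1.83 (SE 0.43, edgeR adjusted p = 0.0117) with MI-2-2. Npm1, the histone chaperone nucleophosmin, was at 379 and 593 CPM in DMSO, 432 and 453 under MM-401, 264 and 327 under iBET, 158 and 215 under EPZ5676, and 119 and 132 under MI-2-2. Its log2 fold changes were -1.38 (SE 0.24, edgeR adjusted p = 0.00395) and -1.95 (SE 0.24, edgeR adjusted p = 0.00113). Nolc1, a chaperone of snoRNPs, Gnl3, the GTPase nucleostemin, and Mybbp1a had log2 fold changes between -1.54 and -1.30 with EPZ5676 and between -1.63 and -1.51 with MI-2-2.

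Of the 13 factors of the small subunit processome and the precursor of the small subunit, 11 fell with EPZ5676 and 12 under MI-2-2. Ddx21, an RNA helicase that also acts in ribosomal RNA transcription, was at 275 and 535 CPM in DMSO, 459.7 and 498 under MM-401, 374 and 427 under iBET, 189 and 213 under EPZ5676, and 162 and 209 under MI-2-2. Ddx21 had log2 fold changes of -1.01 (SE 0.29, edgeR adjusted p = 0.0259) and -1.13 (SE 0.29, edgeR adjusted p = 0.0159). Ddx10, another helicase, was at 73.1 and 114 CPM in DMSO, 82.4 and 88.7 under MM-401, 70.0 and 78.0 under iBET, 37.1 and 41.1 under EPZ5676, and 36.6 and 36.9 under MI-2-2. Its log2 fold changes were -1.26 (SE 0.20, edgeR adjusted p = 0.00265) and -1.34 (SE 0.20, edgeR adjusted p = 0.00195). The processome protein Utp20 had the widest fall of the role with EPZ5676, a log2 fold change of -1.79. With MI-2-2 Utp20 and Wdr75, another processome protein, were level at -1.65. Heatr1, which links the processome to transcription of the precursor, passed with neither inhibitor (edgeR adjusted p = 0.0556 and 0.0533), with log2 fold changes of -1.10 and -1.09. Ltv1, a late factor of small subunit maturation, passed with MI-2-2 alone.

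All 12 large subunit assembly factors fell with both inhibitors. Bop1, Pes1 and Wdr12 form the PeBoW complex, which is needed to process the precursor of the large subunit. Bop1 was at 102 and 252 CPM in DMSO, 180.2 and 198 under MM-401, and 142 and 164 under iBET. It was at 71.7 and 83.8 under EPZ5676, and at 70.5 and 82.7 under MI-2-2. The log2 fold changes of Bop1 were -1.19 (SE 0.35, edgeR adjusted p = 0.0312) and -1.21 (SE 0.35, edgeR adjusted p = 0.0271). Wdr12 was at 66.0 and 187 CPM in DMSO, 80.5 and 96.1 under MM-401, and 51.7 and 65.9 under iBET. It was at 21.0 and 30.2 under EPZ5676, and at 18.0 and 25.8 under MI-2-2. Its log2 fold changes of -2.30 (SE 0.46) and -2.52 (SE 0.46) became -1.35 and -1.55 against DMSO replicate 1 alone, and the call held with both. Pes1, the third subunit, fell by less, with log2 fold changes of -0.85 and -0.93. Nop16, an assembly factor, was at 79.2 and 103 CPM in DMSO, 95.0 and 91.3 under MM-401, 55.9 and 67.1 under iBET, 38.7 and 40.2 under EPZ5676, and 34.4 and 34.3 under MI-2-2. It fell with log2 fold changes of -1.21 (SE 0.15, edgeR adjusted p = 0.00124) and -1.41 (SE 0.15, edgeR adjusted p = 0.00077).

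**Figure D3:**
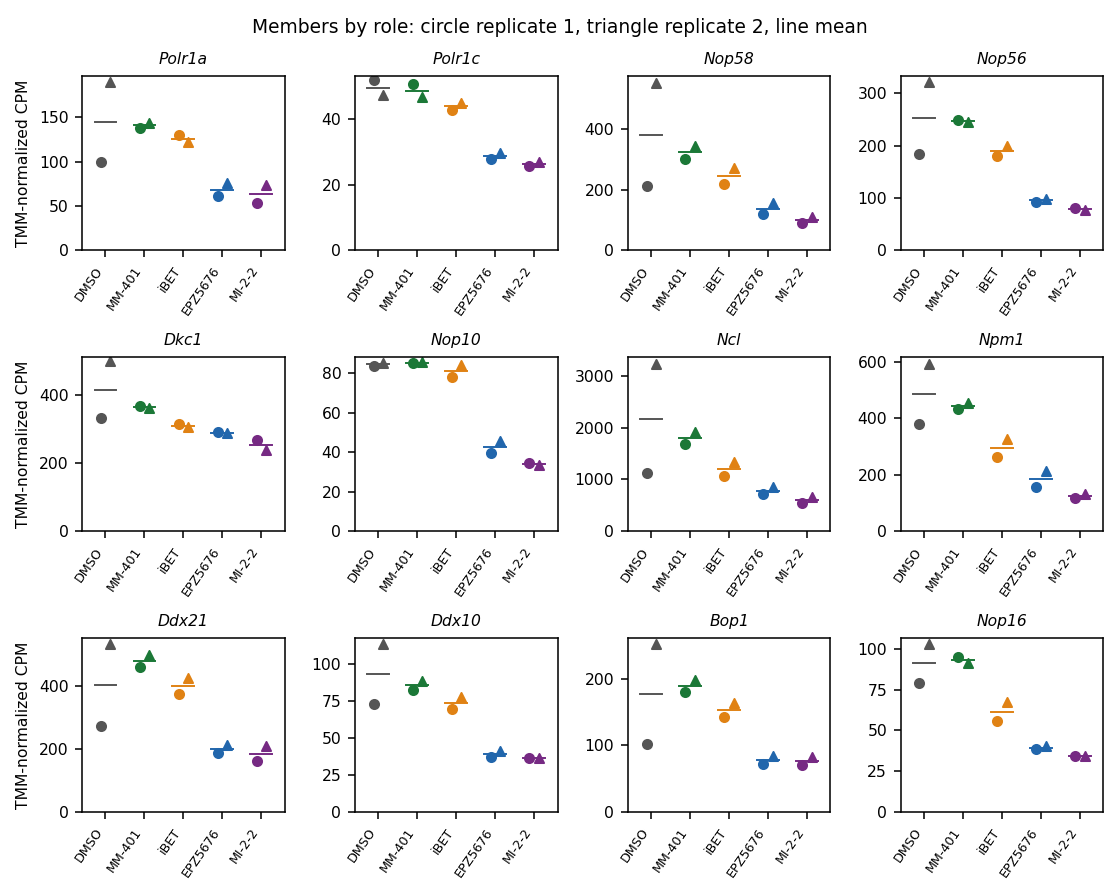
TMM-normalized CPM (y axis, from 0) of the member with the highest mean CPM and the member with the smallest adjusted p of each role, by condition (x axis); circles are replicate 1, triangles replicate 2 and lines the mean of both. The DMSO points of Polr1c and Nop10 lie close together, those of Ncl (1119 and 3224) far apart, and the EPZ5676 and MI-2-2 points are below both DMSO points in each panel.

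The size of these falls depended on the control library, and their direction did not. Against DMSO replicate 2 alone, 41 members fell with EPZ5676 and 41 under MI-2-2, where 25.5% and 26.9% of all genes fell, with median log2 fold changes of -1.54 and -1.62. Against DMSO replicate 1 alone, 23 fell with EPZ5676 and 33 under MI-2-2, where 16.6% and 17.2% of all genes fell, and the medians were -0.63 and -0.82. All 41 log2 fold changes were below 0 in each of these fits. With EPZ5676 against DMSO replicate 1 alone, that of Ncl was -0.49, Nop58 -0.60, Polr1a -0.53 and Ddx21 -0.43. Polr1c and Nop10, whose controls were even, kept their calls against either library, whereas Bop1 against DMSO replicate 1 had log2 fold changes of -0.37 (edgeR adjusted p = 0.0893) and -0.39 (edgeR adjusted p = 0.0794). When the spread was estimated from the 4 libraries of a comparison alone, 3 members passed with EPZ5676 and 9 under MI-2-2, where 2.89% and 3.01% of all genes fell. Without EPZ5676 replicate 1 the call held for 16 members, where 11.2% of all genes fell, and without EPZ5676 replicate 2 for 22, where 9.3% did. Without MI-2-2 replicate 1 it held for 19, where 11.4% of all genes fell, and without MI-2-2 replicate 2 for 25, where 9.33% did.

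**Figure D4:**
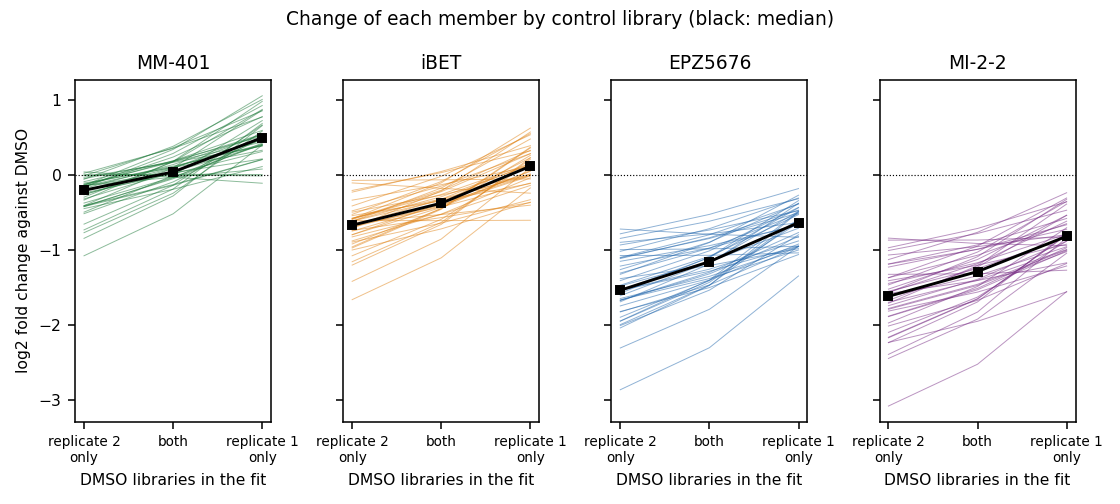
Log2 fold change of each of the 41 members against DMSO (thin lines) and their median (black squares), fitted with DMSO replicate 2 only, both libraries or DMSO replicate 1 only (x axis), with each inhibitor. All lines of EPZ5676 and MI-2-2 stay below 0, the medians of iBET run from -0.67 to 0.12 and those of MM-401 from -0.20 to 0.50.

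By the study's rule of size, mean CPM (scaled by total reads) over 2-fold apart, 34 members were lower with EPZ5676 and 38 under MI-2-2, where 14.5% and 14.6% of all genes were. The same count was 1 with iBET (Wdr12), where 10.7% of all genes were lower, and 0 with MM-401, where 4.44% were. No member was over 2-fold higher with any inhibitor, where the share over all genes was 1.99% (MM-401), 4.19% (iBET), 12.3% (EPZ5676) and 13% (MI-2-2). Scaling by total reads moved the median of all genes tested to -0.23 with EPZ5676 and -0.20 with MI-2-2, from -0.06 and -0.05 with TMM. On that scale 41 members passed the edgeR test with either inhibitor, where 28% (EPZ5676) and 28.2% (MI-2-2) of all genes fell. The member medians were -1.32 and -1.43, still 1 log2 unit or more below the median of all genes.

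EPZ5676 and MI-2-2 were also compared directly, in a contrast whose means hold no DMSO library, although the spread was estimated from all 10 libraries. No member passed (0 of 41 in edgeR and 0 in DESeq2, 2 at an unadjusted p below 0.05, Nop10 and Npm1), and 0.00771% of all genes passed in either direction. The log2 difference of EPZ5676 from MI-2-2 ran from -0.20 for Rrp1b to 0.57 for Npm1, with a median of 0.16 and a median SE of 0.25. The mean level was higher with EPZ5676 for 35 members, and for 15 of these the libraries did not overlap, a pattern found in 18.6% of all genes, while 0 members were separated the other way, as 20.8% of all genes were. An adjusted p above the threshold does not show that the levels were the same.

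With MM-401, which targets the WDR5-MLL1 contact, no member passed against DMSO (0 in edgeR, 0 at an unadjusted p below 0.05, 0 in DESeq2), and 0% of all genes passed in edgeR. The log2 fold changes ran from -0.52 for Wdr12 to 0.39 for Rrp12, around a median of 0.04. For 33 members both MM-401 libraries lay between the 2 DMSO libraries, as they did for 35.9% of all genes. No member had both MM-401 libraries above both DMSO libraries, as 19.5% of all genes did, or below both, as 17.8% did. The MM-401 libraries themselves were close, with a median log2 gap of 0.11 over the members, against 0.77 for DMSO. Against DMSO replicate 2 alone the median was -0.20, 38 members were below 0, and values ran from -1.08 to 0.04. Against DMSO replicate 1 alone the median was 0.50, 2 members were below 0, and values ran from -0.11 to 1.06. The sign of the median thus differed with the control library.

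iBET gave values between these extremes. Of the 41 members 2 fell and 0 rose against DMSO, where 7.54% of all genes fell and 6.38% rose, so the count of members called was not above that of genes at large. They were Nop16, with a log2 fold change of -0.57 (SE 0.15, edgeR adjusted p = 0.0438), and Ebna1bp2, another large subunit factor, with one of -0.53 (SE 0.13, edgeR adjusted p = 0.0325). Of these, Ebna1bp2 was at 156 and 184 CPM in DMSO and at 120.3 and 116 under iBET, without overlap. The median over the members was -0.37, against -0.04 over all genes, and 39 members had a log2 fold change below 0. The libraries did not overlap for 9 members, all lower, a separation downward that held for 26.9% of all genes.

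The control library decided the direction of the iBET difference for much of the set. Both iBET libraries were below DMSO replicate 2 for all 41 members, and both were above DMSO replicate 1 for 20. Against DMSO replicate 2 alone 24 members fell, where 13.9% of all genes fell, with a median of -0.67. Against DMSO replicate 1 alone the median was 0.12, and 15 members were below 0. Values ran from -0.60 to 0.63, with Bop1 at 0.58 and Nop2, a methyltransferase of large subunit RNA, at 0.48. Nop16 and Ebna1bp2 then had log2 fold changes of -0.37 (edgeR adjusted p = 0.074) and -0.40 (edgeR adjusted p = 0.0509). The calls of Nop16 and Ebna1bp2 against DMSO were also lost without iBET replicate 1 or without iBET replicate 2. The share of all genes called fell as well, and the member medians were -0.26 and -0.43.

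**Figure D5:**
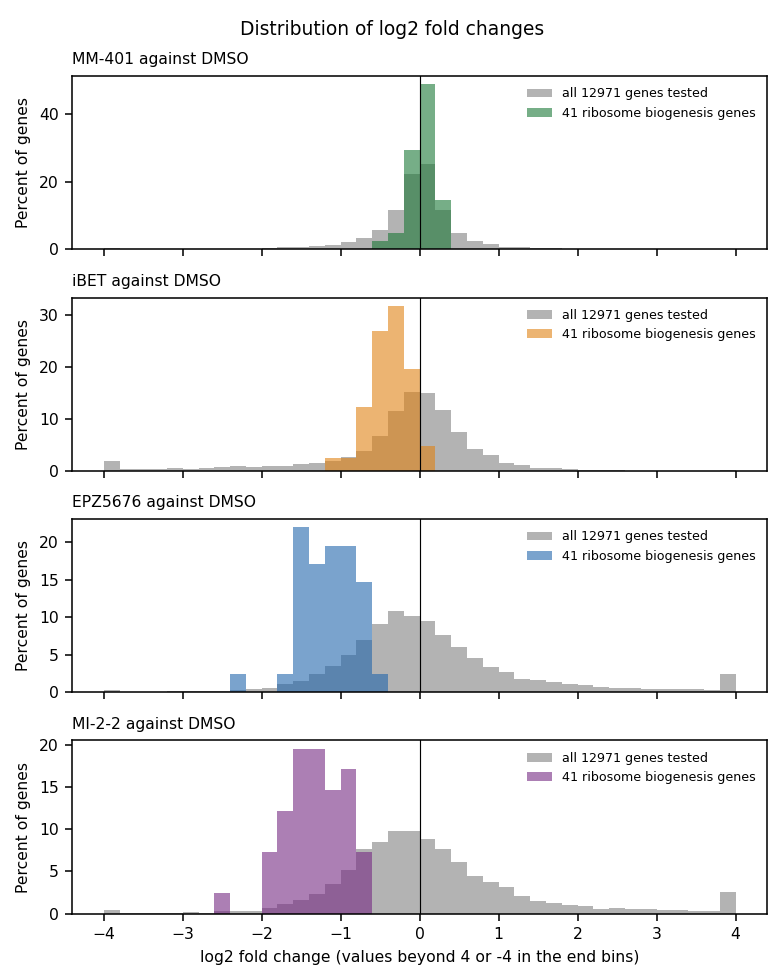
Distribution of log2 fold changes against DMSO (x axis) as percent of genes (y axis) for all 12971 genes tested (grey) and the 41 members (colour), with each inhibitor. The members' medians are 0.04 (MM-401), -0.37 (iBET), -1.16 (EPZ5676) and -1.29 (MI-2-2).

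In comparisons between inhibitors the DMSO libraries enter only the estimate of the spread. The mean levels fell into an order: EPZ5676 and MI-2-2 were the 2 lowest conditions for all 41 members, MI-2-2 being the lowest for 35 and EPZ5676 for 6. iBET came next for 39 members. MM-401 was the highest for 26 members and DMSO for 15. Neighbours at both ends of this order, MI-2-2 with EPZ5676 and MM-401 with DMSO, did not pass the adjusted threshold for any member in edgeR.

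Against MM-401, the mean of EPZ5676 and MI-2-2 was lower for 40 of 41 members by the edgeR test, where 21.6% of all genes fell, with a median log2 difference of -1.36. The exception was Dkc1, at -0.43 (SE 0.15, edgeR adjusted p = 0.055). The largest differences were those of Utp20 and Wdr12, both at -1.90. The EPZ5676 and MI-2-2 libraries were below both MM-401 libraries for all 41 members, which held for 33.2% of all genes, and 0 members rose, where 20.5% of all genes did. Leaving out 1 of the 6 libraries in turn left 27 to 40 members called, the lowest count without MM-401 replicate 2, where 9.33% of all genes fell. Here too the marker genes moved: all 12 neutrophil genes and 10 of 12 macrophage genes were higher with EPZ5676 and MI-2-2 and 7 of 12 progenitor genes lower, and their part was not tested.

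Against iBET, the mean of EPZ5676 and MI-2-2 was lower for 32 members, where 23.8% of all genes fell and 21.9% rose, with a median log2 difference of -0.98. All 41 differences were below 0, and 40 members did not overlap, as did 34.6% of all genes in that direction. Nop10 had the smallest adjusted p, with a log2 difference of -1.09 (SE 0.09, edgeR adjusted p = 0.000155). The 9 members that did not pass were Imp4, Ncl, Ddx18, Ltv1, Nhp2, Rrp1b, Polr1e, Nip7 and Dkc1, with log2 differences between -0.89 and -0.19. Without iBET replicate 1 the call held for 19 members, where 13.2% of all genes fell, and without iBET replicate 2 for 10, where 9.98% did. Of the markers, all 12 neutrophil and 11 of 12 macrophage genes were higher and 7 of 12 progenitor genes lower than with iBET, and their part was not tested.

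iBET was lower than MM-401 in all 41 point estimates, with a median log2 difference of -0.45, and 2 members passed, all lower, where 5.96% of all genes fell and 5.48% rose. These were again Nop16, at -0.60 (SE 0.15, edgeR adjusted p = 0.0413), and Ebna1bp2, at -0.50 (SE 0.13, edgeR adjusted p = 0.0426). For 39 members both iBET libraries were below both MM-401 libraries, a pattern of 36.8% of all genes. Neither call held when any 1 of the 4 libraries was left out, and the share of all genes called fell as well. The median log2 difference of the members then ran from -0.57 to -0.35. With the spread estimated from these 4 libraries alone, in which the replicates were close, 28 members passed, where 17.4% of all genes fell. The neutrophil genes also differed here, at 541 to 1301 CPM in sum with iBET and 5034 to 6605 CPM with MM-401, 7 of 12 being lower with iBET, and their part was not tested.

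Ribosome biogenesis genes outside the set were read from a list of 105 further genes, of which 103 were tested. With EPZ5676 69 fell and 0 rose, with a median of -0.86, where 19.4% of all genes fell. With MI-2-2 82 fell and 0 rose, with a median of -0.94, where 21.2% of all genes fell. With MM-401 0 passed. With iBET 4 fell (Lyar, Ruvbl1, Ruvbl2 and Tcof1) and 1 rose, the helicase gene Ddx54, where 7.54% of all genes fell and 6.38% rose. Against DMSO replicate 1 alone the medians were -0.52 with EPZ5676, -0.60 with MI-2-2, 0.11 with iBET and 0.36 with MM-401. Against DMSO replicate 2 alone they were -1.12, -1.19, -0.41 and -0.16. Their summed level was 7743 and 11169 TMM-normalized CPM in DMSO, 9654 and 10109 under MM-401, 7740.2 and 8638 under iBET, 5063 and 5631 under EPZ5676, and 4856 and 5268 under MI-2-2.

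Tcof1, whose product treacle binds the nucleolar transcription machinery, had the smallest adjusted p of this list with both EPZ5676 and MI-2-2. It was at 187 and 232 CPM in DMSO, 208 and 176 under MM-401, 142 and 145 under iBET, 72.3 and 60.0 under EPZ5676, and 76.0 and 71.4 under MI-2-2. The log2 fold changes of Tcof1 were -1.66 (SE 0.16, edgeR adjusted p = 0.000591) and -1.51 (SE 0.15, edgeR adjusted p = 0.000676). Ruvbl1, an ATPase that helps assemble box C/D snoRNPs, followed with EPZ5676 (log2 fold change -1.60), and Nob1, the nuclease of the last cut of small subunit RNA, with MI-2-2 (-1.14). With iBET the smallest adjusted p-values were those of Ruvbl2, the partner of Ruvbl1, with a log2 fold change of -1.17 (SE 0.19, edgeR adjusted p = 0.00916), and Lyar, with one of -0.89 (SE 0.19, edgeR adjusted p = 0.0208). Ruvbl2 was at 309 and 323 CPM in DMSO and at 136 and 146 under iBET, without overlap. With MM-401 the smallest were those of Surf6 and Tex10, with log2 fold changes of 0.33 and 0.34 (edgeR adjusted p = 0.418 and 0.467).

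Myc itself was at 456 and 403 TMM-normalized CPM in DMSO, 361 and 295 under MM-401, 314 and 257 under iBET, 254 and 145 under EPZ5676, and 182 and 135 under MI-2-2. Its log2 fold change was -1.10 (SE 0.28, edgeR adjusted p = 0.0164) with EPZ5676 and -1.44 (SE 0.28, edgeR adjusted p = 0.00558) with MI-2-2, so it fell with both. With iBET it was -0.59 (SE 0.27, edgeR adjusted p = 0.179) and with MM-401 -0.39 (SE 0.27, edgeR adjusted p = 0.648). Between the DMSO libraries Myc was higher in replicate 1, while 40 of the 41 members were higher in replicate 2. Of 9 tested genes of the MYC network 3 rose and 2 fell with each of EPZ5676 and MI-2-2. Those that rose were Mxd1, Mxd3 and Mxi1, which encode partners of MAX that oppose MYC, and those that fell were Myc and Mga. Mxd1 was at 113 and 36.3 CPM in DMSO, 695 and 715 under EPZ5676, and 587 and 647 under MI-2-2, with log2 fold changes of 3.23 (SE 0.49) and 3.04 (SE 0.49). With iBET Mxd3 rose and Mlx fell, where 6.38% of all genes rose and 7.54% fell. With MM-401 0 of the 9 passed.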

How the data were processed

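RNA of MAF9 cells was sequenced from TruSeq libraries, 2 for each of 5 conditions, grouped by sample title. The authors deposited read counts per gene symbol without normalization. The submitters' processing notes name TopHat2, Subread, DESeq and build mm9; no source used here gives versions, the annotation, the strand setting or the handling of reads matching several genes. Totals were 20394762 to 29473127 reads, and 17450 genes had a read.

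Counts were tested with the quasi-likelihood test of edgeR 4.0.16 in R 4.3.3 (glmQLFit and glmQLFTest after filterByExpr and TMM scaling) in 1 fit of the 10 libraries over 12971 genes, with Benjamini-Hochberg adjustment per comparison and a threshold of 0.05. The SE is the log2 fold change divided by the square root of F. All p-values measure the spread between these libraries, whose origin from separate cultures is known only as biological duplicates. The DMSO libraries also differed in Y-linked and Xist reads, and the part of that difference in the spread was not tested. Replicates differed by more than sampling noise in every group, and each was counted once. On simulated counts for EPZ5676 against DMSO over 12971 genes, 27 of 100 genes changed 2-fold and 87 of 100 changed 4-fold were recovered, with 9 false among 123 calls. The simulation gave each gene the same spread in all groups. In the data the DMSO libraries were further apart, with a median log2 gap over the members of 0.77 against 0.11 to 0.29 in the other groups. The simulation therefore cannot give the rate of false calls against DMSO. The rule of size added 0.1 CPM to each mean and needed a mean of 1 CPM in either group. Alternatives were DESeq2 1.42.0, other scalings, other filters, a replicate block, fits of the compared groups alone and leaving out each library.

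The members and gene lists were chosen with earlier results of these data known. Values in all libraries are given for the member with the highest mean CPM and the one with the smallest adjusted p against DMSO in each role, for Myc, and for members said to be picked later. From the 105 other ribosome biogenesis genes, the 2 with the smallest adjusted p in each comparison with DMSO are named. Windows around gene starts came from RefSeq (GRCm38.p6), whose coordinates were not joined to the counts.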

Additional observations from a re-analysis of the deposited data

How the results depend on the processing

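With 2 libraries a group, the number of members called depended on which libraries were used and on how the spread was estimated. The share of all genes that fell also changed between these fits, so the ranges below are not a feature of the members alone. Leaving out each library in turn, which leaves its group with 1 library assumed to vary like the others, the members that fell numbered 0 to 5 (MM-401), 0 to 24 (iBET), 16 to 41 (EPZ5676) and 19 to 41 (MI-2-2) against DMSO, 0 to 0 with iBET against MM-401, 27 to 40 with EPZ5676 and MI-2-2 against MM-401 and 10 to 29 against iBET, and those that rose with iBET against DMSO numbered 0 to 2. Fits of the compared groups alone called 0 (iBET), 3 (EPZ5676) and 9 (MI-2-2) members against DMSO, where 0%, 2.89% and 3.01% of all genes fell. They called 28 with iBET against MM-401, where 17.4% of all genes fell. The cause was not tested. For iBET against DMSO and against MM-401, DESeq2 called 6 and 4 members, where 12% and 9.94% of all genes fell. With no filter on low counts 1 and 1 were called, where 5.14% and 4.07% of all genes fell. For the rule of size, alternatives were chosen after seeing the data. Against DMSO replicate 1 alone, EPZ5676 had 16 members lower (13.8% of all genes), MI-2-2 had 25 (13.3%) and iBET had 0 (12.5%). MM-401 then had 1 member higher, as were 247 of 11663 genes. Against DMSO replicate 2 alone, the members lower numbered 38 for EPZ5676 (16.6% of all genes) and 39 for MI-2-2 (17.2%). For iBET they numbered 5 (9.06%) and for MM-401 1 (4.81%). No member called in the fit of all 10 libraries changed sign under any alternative. Each member had at least 217 reads in every library.

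The labels give each group replicates 1 and 2 and do not say that a number marks a shared culture or day. Deviations of like-numbered libraries correlated between groups (Pearson r across genes 0.280 to 0.670), which is a hint from the data and not the design. With the replicate number as a block, 41 members, Heatr1 included, fell against DMSO with EPZ5676 and 41 under MI-2-2, where 24.8% and 26.2% of all genes fell. It gave 6 with iBET against DMSO and 8 against MM-401, where 12.2% and 9.74% of all genes fell. It gave 0 with MM-401 against DMSO and 0 between EPZ5676 and MI-2-2, and 41 and 37 with EPZ5676 and MI-2-2 against MM-401 and iBET, where 26.3% and 28.7% of all genes fell.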

Other observations

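The library numbered 2 held the higher level for most members in every condition, in 40 of 41 members in DMSO, 32 under MM-401, 37 under iBET, 37 under EPZ5676 and 34 under MI-2-2. Over all genes tested the share higher in the library numbered 2 lay between 49.1% and 54%. The median gap between the replicates of a member was 0.77 in DMSO on the log2 scale, 0.11 under MM-401, 0.21 under iBET, 0.29 under EPZ5676 and 0.23 under MI-2-2, and outside DMSO no member was 2-fold apart. The widest gap with EPZ5676 was that of Fbl, 0.81, and with MI-2-2 that of Heatr1, 0.66. Rrp1b, a large subunit factor picked after its values were seen, was lower in the library numbered 2 with EPZ5676 and MI-2-2. Its level was 126.9 and 127.9 CPM (TMM-normalized) in DMSO, 127.2 and 128.0 with MM-401 and 82.5 and 84.8 with iBET, against 72.5 and 48.9 with EPZ5676 and 77.4 and 62.4 with MI-2-2.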
